A study of Mus musculus with 2 samples.

Results

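The Dcstamp Cd226 cells of mouse skin are 220 of the 5257 barcodes in the deposited count matrix, 179 in library 1 and 41 in library 2. They were chosen by measured unique molecular identifier (UMI) counts, a UMI being 1 captured transcript. A cell was kept if it had at least 500 genes, 1000 UMIs and at most 10% mitochondrial UMIs, at least 1 UMI of Adgre1 (the F4/80 antigen) or Csf1r (the receptor of the macrophage growth factor CSF1), and at least 1 UMI of at least 2 of Dcstamp, Cd226, Cd2 and Upb1. Cells with 2 or more of Cxcl3, Acod1, Areg and Il10, with both Ly6c2 and Plac8, with 4 or more of Folr2, Cd163, Lyve1, Cd209f, Cbr2 and Ednrb, or with 20 or more UMIs per 10000 of Col1a1, Col1a2 and Col3a1 were left out. The study profiled F4/80+ MHCII-hi cells sorted from the shaved dorsal skin of wild-type (WT) male mice with a Chromium droplet kit. One sample was young, at 9 weeks, and the other aged, at 108 weeks, and each pooled 2 mice. The barcode suffix divides the matrix into 2 libraries, but the sources used here do not tie a suffix to an age, so the libraries are given side by side and the ages are not compared. With 1 library per age and pooled mice there is no replicate, and cells of 1 library are not replicates, so no test was run and the 95% intervals below cover counting error only.

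Skin holds resident macrophages, cells that arrive as monocytes and mature in the tissue, and dendritic cells, and all of them can display antigen on MHC class II. Dcstamp encodes a membrane protein needed for the fusion of osteoclasts and giant cells, Cd226 (DNAM-1) is a receptor for the nectin-family ligands Pvr and Nectin2, Cd2 is an adhesion receptor whose ligand in the mouse is Cd48, and Upb1 is the enzyme of the last step of pyrimidine breakdown. Fn1 encodes fibronectin, a matrix protein best known from fibroblasts, plasma and some macrophages. Cd226, Retnla and Fn1 are also known from the small, MHC class II-bearing macrophages of the serous cavities, which depend on Irf4.

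After the filter, 3797 cells remained, 2396 in library 1 and 1401 in library 2, from 35821853 and 20382748 UMIs. Of these, 1957 cells had Adgre1 or Csf1r UMIs and collagen UMIs under the limit, and the Dcstamp Cd226 cells were 11.2% of them (interval 9.88 to 12.7%). The share was 11.6% in library 1 (10.1 to 13.3%) and 9.83% in library 2 (7.15 to 13.1%), with overlapping intervals. Of all filtered cells, the share was 7.47% in library 1 and 2.93% in library 2. The Dcstamp Cd226 cells were deeper than the 1737 other cells of the gate, with a median of 15911 against 10998 UMIs, and a rule that asks for detected genes selects deeper cells. They held a median of 3145 genes and 3.28% mitochondrial UMIs, against 2727 genes and 4.39% in the other cells. The libraries share 1 barcode, which belongs to none of the 220 cells. No doublet caller was run. Leaving out possible doublets by depth and by marker genes is among the alternatives in the closing section.

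Among the 220 cells, 71 held 2 of the 4 genes, 71 held 3 and 78 held all 4. Cd226 was detected in 197 of them, Dcstamp in 169, Cd2 in 163 and Upb1 in 138. In the cells with exactly 2 genes, the commonest pair was Dcstamp with Cd226, in 21 cells, followed by Cd226 with Cd2 in 20, whereas Cd2 with Upb1 alone occurred in 1. All 4 genes were found in 69 of 179 cells of library 1 and in 9 of 41 cells of library 2. At the edges of the rule, 188 cells that passed every other part held 1 of the 4 genes, and 2 of the 220 cells held 3 resident genes where 1 cell with 4 was left out. Resident genes were mostly undetected, with 0 of the 6 in 79 cells and 1 in 123, and that 1 was usually the scavenger receptor Cd163, detected in 127 cells against 5 for Folr2 and 1 for Lyve1.

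Each of the 4 genes was next measured in cells that the other 3 had chosen, so that its own count played no part in picking those cells. Levels are given as CPM, the UMIs of a gene per 1000000 UMIs of the summed cells. Dcstamp stood at 221 CPM in library 1 and 127 in library 2 in the 185 cells with at least 2 of the other genes, and at 6.24 and 8.12 in the 669 cells with none of them. Cd226 stood at 178 and 241 CPM against 13.4 and 23.7. Cd2 was at 150 and 90.1 CPM against 4.04 and 3.40. Upb1 was at 146 and 50.9 CPM against 3.04 and 1.94. All 4 genes were therefore higher in both libraries where the other genes were present. The 4 genes were themselves chosen with earlier results of these data known, so this describes the cells and is not independent support. With the libraries summed, the margin was widest for Upb1, at 128 against 2.78 CPM, and narrowest for Cd226, at 187 against 15.9. The cells with the other genes were also deeper (a median of 15908 to 16755 UMIs against 10532 to 10896), so each cell was also thinned to 2000 UMIs. After thinning, Dcstamp was seen in 27.0% of the first group (20.8 to 34.0%) and 1.56% of the second (0.751 to 2.85%), Cd226 in 34.1% and 4.17%, Cd2 in 26.8% and 1.10%, and Upb1 in 19.6% and 0.318%. Without thinning, the shares were 72.4% and 4.93% for Dcstamp, 86.0% and 14.9% for Cd226, 70.0% and 3.78% for Cd2, and 58.8% and 2.90% for Upb1. In the genome build mm10, Dcstamp lies at chr15:39745930-39760938 on the plus strand, Cd226 at chr18:89176967-89272229 on the plus strand, Cd2 at chr3:101275899-101287939 on the minus strand and Upb1 at chr10:75401115-75441679 on the plus strand, so that no pair shares a chromosome.

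**Figure D1:**
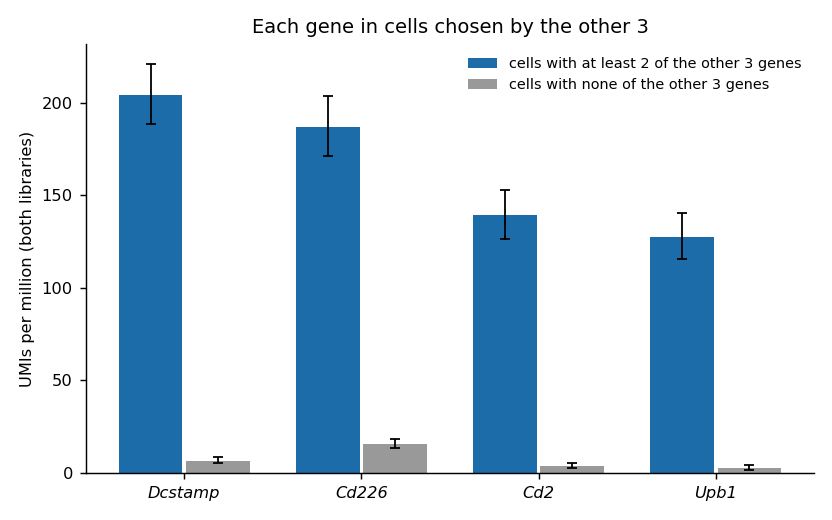
CPM of Dcstamp, Cd226, Cd2 and Upb1 in cells with at least 2 of the other 3 genes (blue) and with none of them (grey), both libraries summed, with exact Poisson 95% intervals. Each blue bar, from 128 for Upb1 to 204 for Dcstamp, stands above its grey bar, the highest of which is Cd226 at 15.9.

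The sorted cells are labelled macrophages, and the Dcstamp Cd226 cells carried some macrophage genes and lacked others. Of 18 macrophage genes outside the rule, all tested, 0 were at least 2-fold higher and 10 at least 2-fold lower than in the other cells in each library. Their median log2 ratio was -1.48. Over all tested genes, 0.715% were higher and 8.77% lower. Against dendritic-like cells, other cells with both Cd209a and Mgl2, 0 of the 18 were higher and 4 lower, with a median log2 ratio of -0.28. Of all genes tested against these cells, 1.28% were higher and 3.9% lower. Fcgr1, the high-affinity IgG receptor used to tell macrophages from dendritic cells, was at 7.27 and 9.94 CPM in libraries 1 and 2 against 155 and 141 in the other cells. Mertk, a receptor for dying cells, had 6 UMIs, all in library 1, and stood at 2.08 CPM there against 26.6. Both defining genes were thus close to absent. The lysozyme gene Lyz2, in contrast, was at 10865 and 9823 CPM against 5457 and 7184, and Itgam (CD11b), Cd14 and the adaptor Tyrobp lay within 2-fold of the other cells. Of 16 dendritic genes, 13 were tested against the other cells, and 3 were higher and 2 lower, with a median log2 ratio of -0.13. Against dendritic-like cells, 12 were tested, and 2 were higher and 4 lower, with a median of -0.93. The dendritic growth factor receptor gene Flt3 was at 6.23 and 25.6 CPM against 23.0 and 37.1 in the other cells, and 49.2 in dendritic-like cells with both libraries summed. Clec9a had 0 UMIs. Since neither set of defining genes was carried in full, the cells are called by their genes and given no cell type name.

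Across all genes outside the rule, 11189 had at least 50 UMIs over the Dcstamp Cd226 cells and the other cells and were tested for size. A gene was called where its ratio was at least 2-fold in the same direction in each library, with a count of 0 set to 3. By this, 80 genes were higher (0.715% of those tested) and 981 lower (8.77%). The median log2 ratio over all tested genes was -0.33, and with ratios centred on it 207 genes were higher and 617 lower, so the larger number of lower genes depends in part on the scaling. Some of the other cells carried many epithelial or vascular genes. Against the 1625 of the 1737 that held under 20 UMIs per 10000 of stromal and epithelial genes and at least 5 of Tyrobp and Fcer1g, a choice made after the data were seen, 110 genes were higher (1.10% of 9996) and 625 lower (6.25%). The same limits were not set on the 220 cells, of which 50 held 2 or more endothelial UMIs and 77 held 2 or more fibroblast UMIs. Of the called genes named in the text, Scarb1, Adamts1, Timp3 and Fabp4 turned direction against the 1625 cells. The part of limits set on 1 side only was not tested. Fabp4, a fatty acid binding protein, was at 259 and 220 CPM against 552 and 669, and had a log2 ratio of 1.71 against the cells without stromal genes. The values of the other 3 stand beside them.

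**Figure D2:**
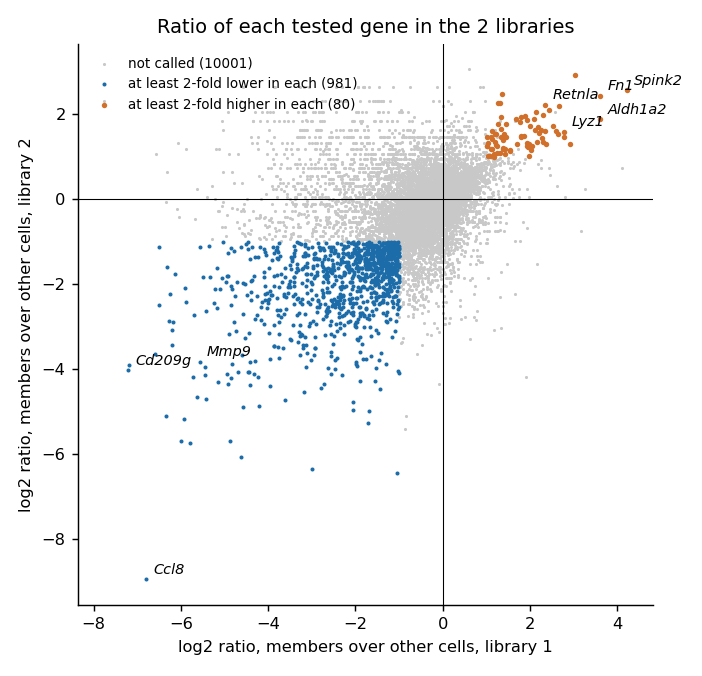
Log2 ratio of CPM, Dcstamp Cd226 cells over other cells, in library 1 (x axis) and library 2 (y axis) for each tested gene outside the rule that has a ratio in each library, with a count of 0 set to 3. The 80 genes higher in each library are orange and include Fn1, Retnla, Lyz1, Spink2 and Aldh1a2, and the 981 lower ones are blue, with Ccl8 farthest down.

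Fn1 ranked behind Spink2 and Aldh1a2 by ratio and was far more abundant than either. It stood at 2563 CPM in library 1 and 1299 in library 2, against 210 and 240 in the other cells, a log2 ratio of 3.42 (3.37 to 3.47). The ratio was 3.61 in library 1 alone and 2.44 in library 2 alone, so its direction was shared and its size was not. Fn1 was detected in 89.5% of the Dcstamp Cd226 cells and 27.9% of the others, and in 75.5% (69.2 to 81.0%) and 12.7% (11.1 to 14.3%) after thinning to 2000 UMIs, which left out 40 of the others and 0 of the Dcstamp Cd226 cells. Per cell, the median was 19.0 Fn1 UMIs per 10000, from 0 at the tenth percentile to 51.5 at the ninetieth. Fibroblast-like cells also express Fn1, at 1026 and 553 CPM, and their free RNA can enter any droplet. The level in the Dcstamp Cd226 cells was above that of the fibroblast-like cells in each library. The part of free RNA in the Fn1 counts was not tested. In keratinocyte-like cells, which had a median of 23000 UMIs, the thinned share with an Fn1 UMI was 3.13% (0.381 to 10.8%). The Fn1 gene lies at chr1:71585520-71653200 on the minus strand.

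Apart from Fn1, no listed gene of fibronectin binding and matrix was called higher. Of the 22 genes of this list, 1 was higher (Fn1) and 1 lower (Itgb5), with a median log2 ratio of -0.23 beside -0.33 over all genes. Over all tested genes, 0.715% were higher and 8.77% lower, and counts this small do not set the list apart. Ecm1, a secreted matrix glycoprotein, was at 503 CPM in library 1 and 253 in library 2 against 105 and 152 and missed the 2-fold limit in library 2. The fibronectin receptor subunits Itga5, Itgb1 and Itgav stood at log2 ratios of -0.03, -0.12 and 0.15, and Itga4 at 0.83. Thbs1 (thrombospondin) was at 375 and 382 CPM against 716 and 714, Sparc at 108 and 24.1 against 215 and 110 (a log2 ratio of -1.04, but 0.10 against the other cells without stromal genes), and the cross-linking enzymes Tgm2 and F13a1 had log2 ratios of -1.02 and -0.33.

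Genes known from small cavity macrophages were higher in part. Of 13 genes outside the rule, all tested, 4 were higher (Retnla, Fn1, Itgax and Fcrls) and 2 lower (Clec10a and Pdcd1lg2). Over all tested genes, 0.715% were higher and 8.77% lower. The median log2 ratio of the list was 0.27, or 0.07 against the other cells without stromal genes. Against dendritic-like cells, 3 were higher and 2 lower, with a median of -0.35. Retnla, which encodes the secreted protein RELM-alpha and is induced by interleukin 4, was the most abundant of the 4, at 9966 and 4655 CPM against 1964 and 994, a log2 ratio of 2.37 (2.35 to 2.39). It was uneven among cells, with a median of 29.5 UMIs per 10000, a lower quartile of 0.581 and a ninetieth percentile of 344. In library 2 the median was 0.515 and in library 1 it was 45.8. Itgax (CD11c) was at 129 and 119 CPM against 37.1 and 42.4, and Fcrls, an Fc receptor-like gene, at 1002 and 614 against 258 and 264. Their log2 ratios were 1.72 and 1.83, and each was more than 2-fold higher in each library. The transcription factor Irf4 was at 172 and 105 against 87.7 and 111 and was not called, and neither were Ccr2, Mgl2 or Cd209a. Genes of large cavity macrophages were scarce: Gata6, their defining factor, had 2 UMIs in all 220 cells, Vsig4 and Prg4 had 0, and of 9 tested 0 were higher.

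Other genes of alternative activation did not follow Retnla as a group. Of the 14, all tested, 2 were higher (Retnla and Ear2) and 4 lower (Chil3, Clec10a, Pdcd1lg2 and Ccl24), with a median log2 ratio of -0.65. The shares over all tested genes were 0.715% higher and 8.77% lower. Ear2, an eosinophil-associated ribonuclease, was at 659 and 910 CPM against 260 and 239. It belongs to a family of similar genes among which reads may be split. Chil3 and Arg1 had 0 UMIs, and Chil3 was at 20.5 and 59.5 CPM in the other cells. The mannose receptor Mrc1 was at 530 and 599 against 923 and 833, under 2-fold.

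The 20 genes with the highest ratios were led by Spink2, a serine protease inhibitor, at 29.8 CPM in library 1 and 7.10 in library 2 against 1.60 and 1.20, a log2 ratio of 4.08 (3.51 to 4.68). It rests on 91 UMIs, 5 of them in library 2, and was found in 49 of the 220 cells and in 26 of the 1737 others. After thinning, the shares were 4.09% (1.89 to 7.62%) and 0.177%, and fibroblast-like cells, which should lack it, stood at 0.220%. Aldh1a2, which makes retinoic acid, had 165 UMIs in library 1 and 4 in library 2, or 57.1 and 5.68 CPM against 4.68 and 1.54, a log2 ratio of 3.59 (3.21 to 3.97). Both genes were higher in each library but owe most of their counts to library 1. Lyz1 was at 3351 and 2478 CPM against 488 and 822, a log2 ratio of 2.48 (2.45 to 2.52). Its close copy Lyz2 lies beside it, at chr10:117277331-117282321 with Lyz1 at chr10:117287797-117292868, so reads could be split between them, and Lyz2 was 0.86 higher on the log2 scale without being called.

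Of the remaining 17, several encode channels and receptors, all at low levels. The calcium release channel Ryr1 was at 66.4 and 29.8 CPM against 8.76 and 12.1, the lipid-binding transport factor Unc119 at 102 and 73.8 against 16.0 and 16.2, and the interleukin 27 receptor Il27ra at 20.1 and 19.9 against 3.69 and 4.62. Others were Chrna5 (a nicotinic receptor subunit), Kcnq1 (a potassium channel) and Sigirr (an inhibitory member of the interleukin 1 receptor family), at log2 ratios of 2.93, 2.51 and 2.40. Galnt9, Pilra, Plxna4, Prelid2, Hebp2, Espn, Plxdc2 and Chn2 lay between 2.38 and 2.09. Plxdc2 had 2 UMIs in library 2. Another 6 of the 80 higher genes are gene models without a name.

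From the fixed lists, the clotting factor genes F7 and F10 were higher too. F10 was at 110 and 124 CPM against 25.3 and 39.8, and F7 at 17.3 and 21.3 against 4.35 and 6.50, with log2 ratios of 1.96 (1.78 to 2.14) and 1.89 (1.43 to 2.34). The genes are neighbours on the plus strand, F7 at chr8:13026034-13035809 and F10 at chr8:13037308-13056676. Lpl, a lipoprotein lipase, was at 1703 and 1076 against 528 and 436. It was the 1 higher gene of 18 lipid-associated genes, of which 9 were lower, beside 0.715% and 8.77% of all tested genes. Among these lower genes, Apoe was at 147 and 274 CPM against 4166 and 4001, a log2 ratio of -4.58 (-4.70 to -4.47), and Gpnmb had 4 UMIs.

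Partners and relatives of the 4 rule genes were mostly level with the other cells. Of 13 genes of the CD2 and SLAM family and their adaptors, 12 were tested. Of these, 2 were higher and 1 lower, beside 0.715% and 8.77% of all tested genes. Slamf9 was at 190 and 193 CPM against 72.4 and 66.5, a log2 ratio of 1.43 (1.30 to 1.56), and the adaptor Sh2d1b1 (EAT-2) at 21.1 and 9.94 against 6.06 and 3.59. Slamf8 stood at 134 and 111 against 53.9 and 56.9 and missed the limit in library 2. Cd48, the ligand of Cd2, was at 117 and 119 against 126 and 107. Ly9 was the lower gene, at 8.65 and 4.26 against 38.9 and 31.6. Of the nectin axis of Cd226, 7 of 9 genes were tested and 0 were called: Pvr was at 34.6 and 31.2 CPM against 66.8 and 70.1, a log2 ratio of -0.99, Nectin1 at 0.26, and the competing receptors Tigit and Cd96 had 0 UMIs.

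Genes of cell fusion and osteoclasts did not accompany Dcstamp as a group. Of 21 genes in the matrix and outside the rule, 18 were tested, with 0 higher and 7 lower and a median log2 ratio of -1.26. The shares over all tested genes were 0.715% and 8.77%. Over resident, monocyte-like and dendritic-like cells, the medians of the list were -0.90, -0.32 and -0.52, with 1, 1 and 0 genes higher. Mmp9, a gelatinase of osteoclasts, had 0 UMIs in all 220 cells against 49.2 and 60.2 CPM in the other cells and 167 in resident cells with the libraries summed, a log2 ratio of at most -5.96 with 3 counts in place of 0. It was detected in 57.6% of resident cells, but in 2.62% of monocyte-like and 6.57% of dendritic-like cells. Ocstamp, which acts with Dcstamp in fusion, had 22 UMIs and stood at 6.92 and 2.84 CPM against 5.56 and 7.69. Ctsk and Acp5, the cathepsin and acid phosphatase of osteoclasts, had log2 ratios of -1.92 and -1.57, their master factor Nfatc1 -2.17 (-1.24 against the other cells without stromal genes) and the RANK receptor Tnfrsf11a -1.24. Acp5 turned to 1.20 with possible doublets left out. Siglec15 and Oscar had 0 UMIs. In pyrimidine breakdown, only 2 of 7 genes had enough UMIs to be tested. Dpyd, the first enzyme, had 0 UMIs in the 220 cells. Dpys, the enzyme before Upb1, had 16 UMIs, 15 in library 1 and 1 in library 2, or 5.19 and 1.42 CPM against 0.606 and 0.513. It was under the limit of 50 UMIs and was not tested.

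Many of the lowest ratios belonged to epithelial and stromal genes, such as Krtdap and Krt1, which some of the other cells carried. Among the macrophage lists, the resident genes had the lowest median. Of 20 resident genes outside the rule, all tested, 0 were higher and 16 lower, with a median log2 ratio of -2.95. The lower share over all tested genes was 8.77%. Since the rule caps 6 resident genes, the choice of cells bears on genes that go with them. Ccl8, a chemokine, was at 19.0 and 4.26 CPM against 2110 and 2094, a log2 ratio of -7.03 (-7.43 to -6.66). Cd209g had 1 UMI against 51.3 and 69.2 CPM, a log2 ratio of -7.64 (-12.95 to -5.16). Selenop, Pf4, Gas6, Igf1, Stab1 and C4b had log2 ratios between -4.97 and -3.17, and Mrc1, Cd209d, F13a1 and Mgl2 were not called.

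Genes for the uptake of dying cells were lower in the same way, 12 of 19 tested, with 0 higher and a median log2 ratio of -1.89. The lower share over all tested genes was 8.77%. The complement genes C1qa, C1qb and C1qc had log2 ratios of -1.89, -1.26 and -2.17. C1qa was at 388 and 182 CPM against 1234 and 1464, and it was detected in 29.1% of the 220 cells and 65.5% of the others. In dendritic-like cells, those with both Cd209a and Mgl2, it was detected in 33.4% and stood at 553 and 473 CPM. Against them, 6 of 18 tested genes of this list were lower, with a median log2 ratio of -0.89. Of all genes tested against them, 3.9% were lower. The scavenger receptor Msr1 had 17 UMIs and a log2 ratio of -3.69. Axl and Lrp1, other receptors of this group, were not called, at -0.32 and 0.28. Scarb1, which was lower in this comparison, was level (0.03) against the other cells without stromal genes.

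Of 11 interferon-induced genes tested, 10 were lower and 0 higher, with a median log2 ratio of -2.91. The lower share over all tested genes was 8.77%. Rsad2 was at 5.19 and 15.6 CPM against 139 and 135, a log2 ratio of -4.25 (-4.87 to -3.70), and the transcription factor Irf7 at 22.8 and 8.52 against 200 and 132. Isg15 was at 65.1 and 66.7 against 196 and 212. The exception, Ifi44, had 2 UMIs and was not called. The monocyte-like cells held the highest levels, with Irf7 at 672 and Rsad2 at 392 CPM, and in dendritic-like cells these were 18.5 and 34.3. Against monocyte-like cells, 10 of 11 tested genes were lower, with a median log2 ratio of -4.47. Against resident cells, 10 of 10 were lower, with a median of -2.89. Against dendritic-like cells, 1 of 7 was lower, with a median of -0.65. Over all genes tested against these groups, 8.05%, 10.6% and 3.9% were lower, in the same order. Since the rule leaves out cells with both Ly6c2 and Plac8 and cells with 4 or more resident genes, the choice of cells bears on this list.

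Of 18 inflammatory genes outside the rule, 16 were tested, with 0 higher and 4 lower: the chemokines Ccl2, Ccl4, Ccl7 and Cxcl10. These counts, and those of proteases and growth factors below, stand beside 0.715% higher and 8.77% lower over all tested genes. Ccl7 was at 89.3 and 71.0 CPM against 1643 and 2052, a log2 ratio of -4.35 (-4.51 to -4.18). Il1b, in contrast, was at 2426 and 1923 against 2067 and 2193, and Cxcl2 and Il6 had log2 ratios of 0.07 and 0.14. The rule capped 4 genes of this kind, and Nos2 and Il12b had 0 UMIs. Among 24 proteases and inhibitors tested, 0 were higher and 7 lower, and the metalloprotease Mmp12 was level, at 137 and 139 CPM against 106 and 91.1. Adamts1 and Timp3, among the 7, turned to 1.80 and 2.21 against the other cells without stromal genes. Growth factors were lower in 5 of 15 tested (Pdgfa, Pdgfc, Igf1, Vegfb and Hbegf), with 0 higher, and Tgfb1 and Vegfa were level at log2 ratios of 0.23 and -0.15.

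**Figure D3:**
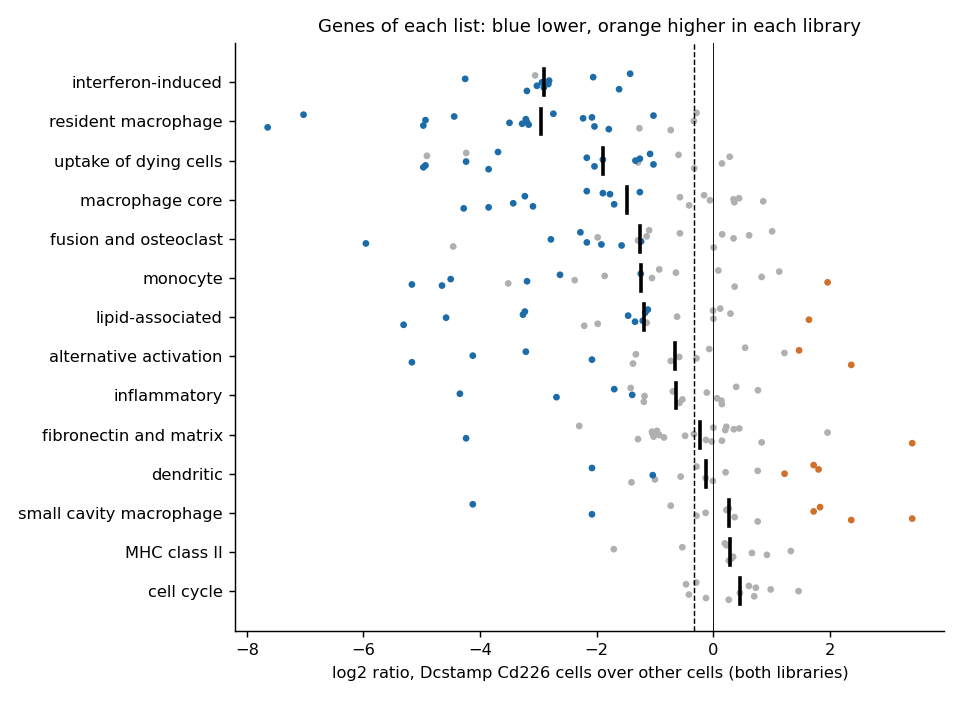
Log2 ratio of CPM, Dcstamp Cd226 cells over other cells, libraries summed (x axis), for the tested genes of 14 lists (rows). Each point is 1 gene, orange or blue where at least 2-fold higher or lower in each library, black bars are list medians and the dashed line is the median of all genes (-0.33). The interferon-induced and resident lists lie farthest left, with medians of -2.91 and -2.95. The cell cycle list lies farthest right, with a median of 0.46, and that of MHC class II is 0.29.

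MHC class II genes, on whose protein the cells were sorted, were level with the other cells. Of 10 genes tested, 0 were called, with a median log2 ratio of 0.29. H2-Aa was at 11061 and 13034 CPM against 9075 and 10817, and the invariant chain Cd74 at 26276 and 32150 against 22194 and 27270. The peptide-loading gene H2-DMb2 was highest in ratio, at 143 and 125 against 51.1 and 68.9, under 2-fold in library 2. Of the dendritic genes, Batf3, a transcription factor, was at 73.4 and 54.0 CPM against 20.04 and 19.3, a log2 ratio of 1.81 (1.58 to 2.03), and Cd24a at 75.4 and 98.0 against 31.9 and 41.0. Zbtb46, a factor of classical dendritic cells, stood at 20.4 and 17.0 against 18.6 and 23.8.

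Of 17 monocyte genes outside the rule, all tested, 1 was higher (F10) and 6 lower. The counts in this paragraph stand beside 0.715% higher and 8.77% lower over all tested genes. Ms4a4c was at 22.5 and 32.7 CPM against 227 and 216, while Ccr2, the receptor that draws monocytes into tissue, was at 379 and 277 against 306 and 193. Among 29 tested transcription factors, Batf3 was the 1 higher gene and 11 were lower, among them Maf, Irf8 and Id3, with log2 ratios of -3.43, -2.39 and -3.01. That of Id3 was -1.50 against the other cells without stromal genes. Spi1 (PU.1) and Zeb2 were level at 0.19 and 0.26, and Pparg and Bhlhe40, at 0.83 and 0.59, were not called. Of 13 immediate-early and heat shock genes, 4 were lower and 0 higher, with Jun at a log2 ratio of -2.15, or -1.25 against the other cells without stromal genes. Of 11 cell cycle genes tested, 0 were called, and Mki67 was at 28.7 and 14.2 CPM against 23.2 and 16.1. Of 7 chemokine receptors tested, 0 were called.

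Set against 3 groups cut from the other cells by the genes they hold, the Dcstamp Cd226 cells differed by 2-fold in the fewest genes from the dendritic-like cells. Resident cells held 4 or more of the 6 resident genes (479 cells), monocyte-like cells both Ly6c2 and Plac8 (267 cells), and dendritic-like cells both Cd209a and Mgl2 (548 cells). Over resident cells, 206 genes were higher (2.46% of 8358) and 884 lower (10.6%). Over monocyte-like cells, 102 were higher (1.31% of 7788) and 627 lower (8.05%), and over dendritic-like cells 109 were higher (1.28% of 8517) and 332 lower (3.90%). These counts were not compared by a test, and they depend on the number of cells in each group. The choice of cells also bears on their order. The rule caps the genes that define the resident and monocyte-like cells. It does not cap Cd209a and Mgl2, which were detected in 64.5% and 85.9% of the Dcstamp Cd226 cells. Fn1 and Spink2 were among the 10 highest genes over each of the 3 groups. Fn1 stood at 131 CPM in resident, 221 in monocyte-like and 236 in dendritic-like cells with the libraries summed, with log2 ratios of 4.14, 3.39 and 3.29.

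Other genes in these lists differed by group. Ccl22, a chemokine of dendritic cells, was highest over resident cells, at 52.3 and 41.2 CPM against 1.09 and 0, but monocyte-like cells held 58.8 in library 1 and dendritic-like cells 42.0 in library 2. Over monocyte-like cells the leading gene was Retnla, at a log2 ratio of 3.55. Over dendritic-like cells the leading genes were Aldh1a2 and Spink2, with log2 ratios of 3.98 and 3.80, and Kcnq1, Lpl and F7 were among the 10. Ltb4r1, a leukotriene B4 receptor, was at 165 and 159 CPM in the Dcstamp Cd226 cells, against 9.77 and 27.0 in resident, 36.9 and 58.0 in monocyte-like and 76.1 and 61.7 in dendritic-like cells. Dcstamp itself was at 12.8 and 32.3 CPM in resident, 14.7 and 21.4 in monocyte-like and 15.9 and 13.5 in dendritic-like cells, which the rule sets in part.

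**Figure D4:**
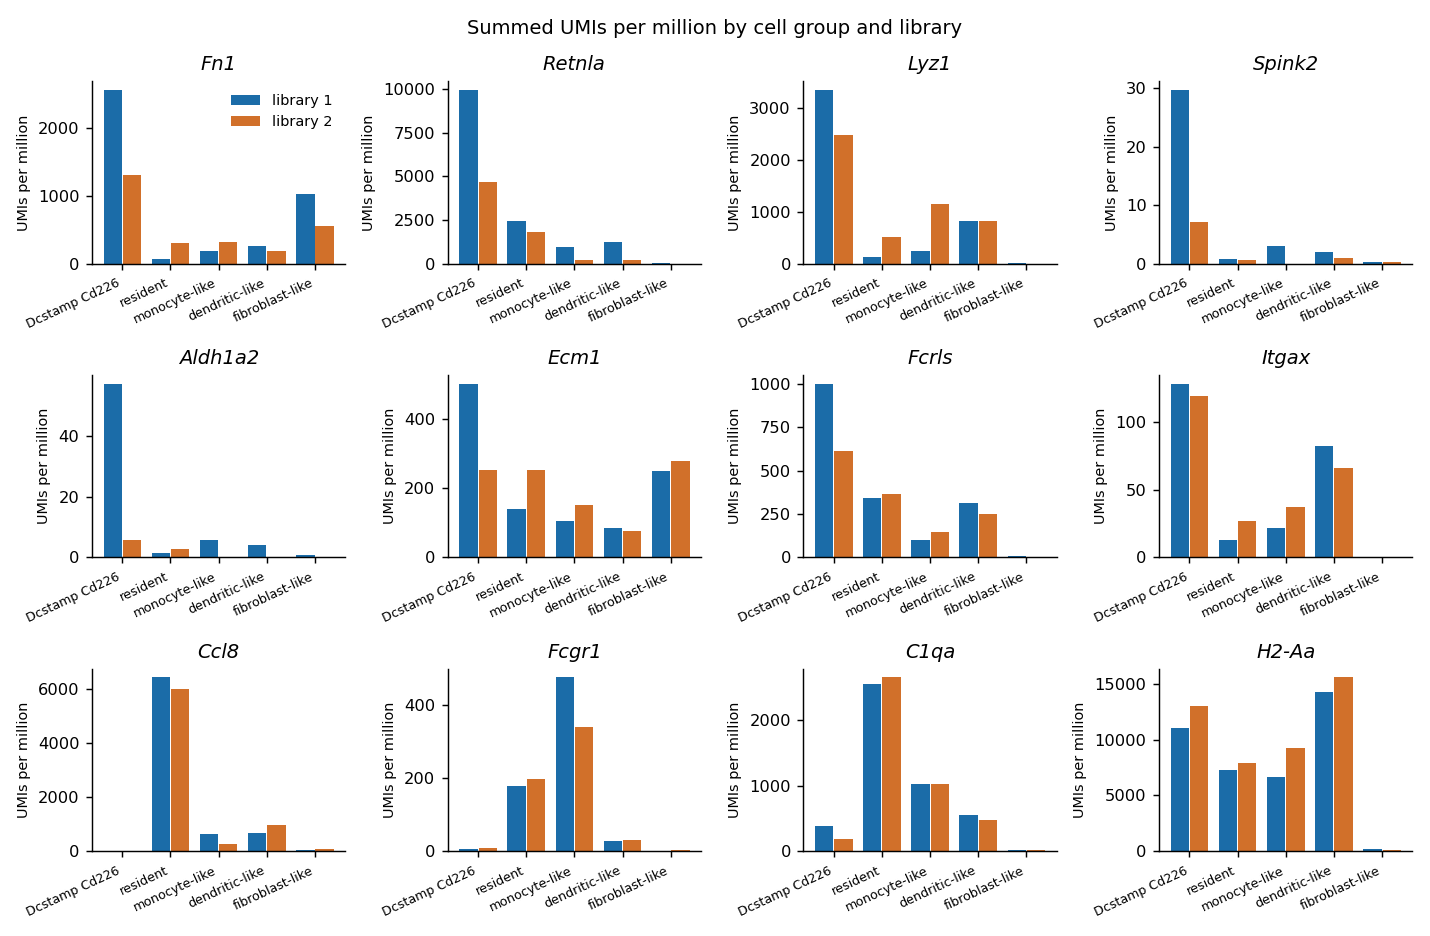
Summed CPM (y axis) of 12 genes in 5 cell groups, library 1 in blue and library 2 in orange, with no error bars. Fn1, Retnla, Lyz1, Spink2, Aldh1a2, Fcrls and Itgax were highest in the Dcstamp Cd226 cells in each library, while Ccl8 and C1qa were highest in resident cells, Fcgr1 in monocyte-like cells and H2-Aa in dendritic-like cells.

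The cells were graded by how many of the 4 genes they held. Fn1 was at 67.0 CPM in the 636 cells with 0 genes that passed the other parts of the rule, 354 in the 188 with 1, and 1091, 2611 and 2956 in the members with 2, 3 and 4. In library 2 the series was 46.3, 329, 715, 1850 and 1837, so that the levels with 3 and 4 genes were close there. Spink2 was at 0.115, 1.17, 2.92, 25.2 and 41.3 CPM, and Lyz1 at 327, 1054, 1727, 2911 and 4413. Retnla was highest with 3 genes, at 11957 CPM, and 8251 with 4. Flt3 went the other way, at 40.6, 39.2, 34.0, 0 and 0.688 CPM, and in each library it had at most 1 UMI in the cells with 3 or 4 genes. C1qa had no common order: it was at 586, 469, 728, 551 and 90.1 CPM in library 1 and at 829, 1023, 127, 162 and 317 in library 2. The share of library 2 differs between the steps, so the sums over both libraries also reflect it. Depth moved with the number of genes, from a median of 10557.5 UMIs with 0 to 18361 with 4, and its part was not tested.

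**Figure D5:**
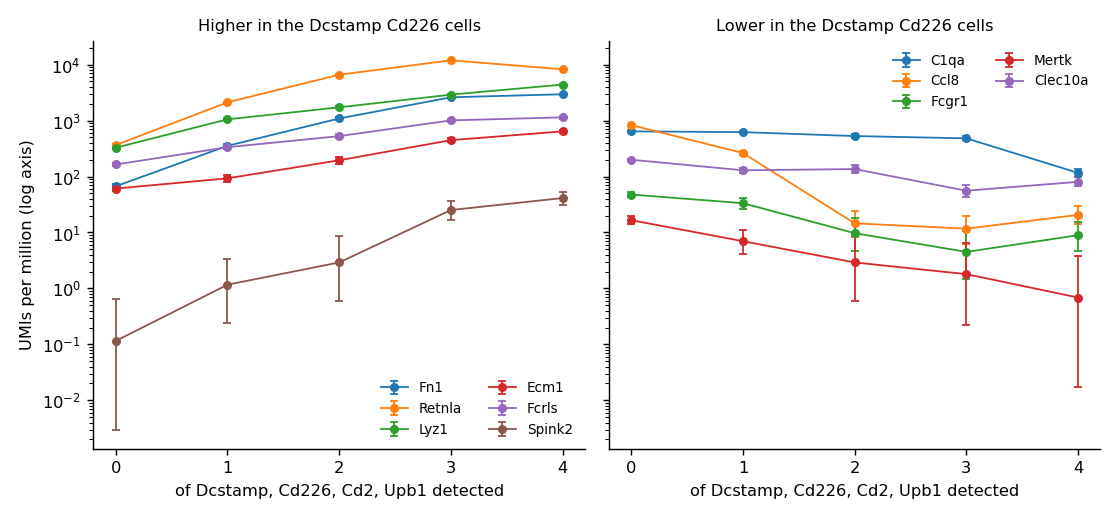
CPM on a log axis (y) against the number of Dcstamp, Cd226, Cd2 and Upb1 detected (x) in cells that pass the other parts of the rule, both libraries summed, with exact Poisson 95% intervals. Fn1, Lyz1, Ecm1, Fcrls and Spink2 are higher at each step, Retnla peaks at 3 genes, and the summed C1qa level ends at 116, with a different course in each library.

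Clusters made without the rule genes and without the listed genes placed most of the 220 cells in 2 of 17 clusters (Leiden, resolution 1). One held 84 of them among 161 cells and the other 70 among 118 cells, and 66 lay elsewhere. The second cluster held 66 members from library 1 and 4 from library 2, and its Fn1 and Dcstamp levels were 2767 and 285 CPM. At resolution 0.5, 1 cluster of 352 cells held 157 (71.4%) of the members, 137 from library 1 and 20 from library 2. The next, of 349 cells, held 43 members (19.5%), 26 of the 179 in library 1 and 17 of the 41 in library 2. All its cells together had Fn1 at 144 CPM and Retnla at 63.6, beside 2073 and 10517 in the first cluster. Mgl2, Cd209a and Flt3 stood at 1753, 1218 and 52.8 CPM, beside 729, 345 and 1.23. Resident cells also held Mgl2 and Cd209a, detected in 96.5% and 86.8% of them, while Flt3 was detected in 4.80%. A larger part of the library 2 members therefore lay in a cluster with low Fn1 and Retnla and higher Mgl2, Cd209a and Flt3. The part of this cluster in the library differences given above was not tested. At resolution 1, the cluster with 84 members also held 77 other cells, of which 36 had 0 of the 4 genes and 34 had 1. These others carried Retnla at 8263 and Lyz1 at 2333 CPM, beside 12897 and 3878 in the members of that cluster, but Fn1 at 755 against 2844 and 0 UMIs of Spink2. They were shallower, with a median of 9778 against 14631.5 UMIs.

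The other parts of the rule left out 93 of the 313 cells with 2 or more of the 4 genes, 74 of them for inflammatory genes, 33 for the monocyte pair and 23 for resident genes, with some counted more than once. The 93 cells held Fn1 at 1151 CPM, Retnla at 6399 and Lyz1 at 2144, below the 2315, 8926 and 3180 of the 220 and above the other cells. Ccl8 was at 558 and Fcgr1 at 166 in them, against 16.1 and 7.79. The 74 with 2 or more inflammatory genes were nearest to the members, with Fn1 at 1336 and Retnla at 7925. Counted as other cells here, the 93 raise the levels that the members were set against, and without them the Fn1 log2 ratio was 4.40.

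Genes of other cell types were scarce in the 220 cells, with exceptions. The 15 T and NK cell genes summed to 300 and 320 CPM, against 187 and 242 in the other cells, but 1075 of their 1093 UMIs were Il7r, and Cd3d, Cd3e, Cd3g, Trac, Trbc2, Gzma, Klrb1c and Ncr1 had 0. Il7r was at 298 and 305 CPM, and at 298 and 380 in dendritic-like cells. The 8 B cell genes summed to 39.1 and 27.0 CPM against 200 and 102, with Cd79a and Ms4a1 at 0. Keratinocyte genes summed to 33.6 and 41.2 CPM against 750 and 966, endothelial genes to 136 and 159 against 278 and 253, and pericyte genes to 44.6 and 5.68 against 78.0 and 225. Fibroblast genes other than the rule's collagens summed to 139 and 68.2 against 337 and 160, and Langerhans genes to 15.6 and 54.0 against 127 and 110. Mast cell, platelet and neutrophil genes summed to at most 7.27 CPM in either library, with 1 of 6, 4 of 6 and 5 of 8 genes at 0. The 6 Schwann cell genes summed to 142 CPM in library 1 and 48.3 in library 2, against 59.0 and 59.0. The part of these genes in the results was not tested. Fibroblast-like cells, which should lack Retnla and Lyz1, held at most 19.9 and 10.2 CPM of them in either library. The part of free RNA in the levels of these genes was not tested.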

How the data were processed

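Sorted skin cells of 2 pooled samples were profiled by droplet single-cell RNA sequencing. Per the labels, the authors made the counts with Cell Ranger 4.0.0 on mm10, and the deposited matrix holds UMI counts for 32285 genes and 5257 barcodes of both libraries. No normalization or annotation came with it. Counts were summed per group and library and scaled to 1000000 UMIs per group (CPM). Intervals are exact Poisson, conditional Poisson for ratios and Clopper-Pearson for shares, at 95%. A gene was tested for size with at least 50 UMIs, and a count of 0 was set to 3. Positions came from GENCODE for that build, matched by identifier (32158 of 32285). Clusters used 2000 variable genes, 30 components and 15 neighbours (scanpy 1.11.5, leidenalg 0.10.2). Named genes were those of the rule and of the fixed lists, the 20 highest and 15 lowest over other cells, and the 10 highest over each of the 3 groups, without unnamed gene models. A few named genes are not reported here. Members and lists were chosen with earlier results of these data known. Lists of the cells' own program overlap in some genes. The steps were tested on simulated data. Alternatives were other filters, depth, doublets, cells compared, weighting, scaling and each library alone. Python 3.11.15, numpy 2.4.6 and scipy 1.17.1 were used.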

Additional observations from a re-analysis of the deposited data

How the results depend on the processing

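No paired analysis was possible because each age is 1 library and no test was run. The share of Dcstamp Cd226 cells moved from 11.2% to 14.9% with the stricter filter on cells, 7.61% with at least 3 of the 4 genes, 4.01% with the rule on cells thinned to 2000 UMIs, 8.79% with possible doublets left out, 9.83% in library 2 alone and 13.6% with doublets defined without Il7r.

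The Fn1 log2 ratio (3.42) stayed above 0 in all alternatives: 3.09 with the stricter filter, 3.47 with 3 of 4 genes, 2.75 with thinning, 3.81 without possible doublets, 3.26 with at least 3 Adgre1 and Csf1r UMIs, 3.61 and 2.44 in library 1 and library 2 alone, 3.67 as a mean over cells, 3.75 when centred, 3.28 against other cells without stromal genes, 4.40 without the cells dropped for other rule genes and 3.57 with doublets defined without Il7r.

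The count of higher genes (80) was 126 with 3 of 4 genes, 219 in library 1 alone, 121 as a mean over cells, 207 when centred and 49 with at least 200 UMIs. The count of lower genes (981) was 583 with the stricter filter, 380 with thinning, 273 without possible doublets, 611 with at least 3 Adgre1 and Csf1r UMIs, 2549 in library 1 alone, 617 when centred, 625 without stromal genes and 329 with doublets defined without Il7r. Library 2 alone gave 101 higher and 1125 lower genes. Of the listed genes, 11 were higher and 113 lower. The higher ones were 23 in library 1 alone and 18 when centred, and the lower ones 62 with thinning, 46 and 54 without possible doublets (with and without Il7r) and 170 in library 1 alone.

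Of 1519 values of 117 named genes, 923 stayed within the interval of the main value and 585 left it without turning sign. The other 11 turned sign, in 7 genes. With thinning, this was Runx2 (0.11). Without possible doublets, these were Ace (0.20), Acp5 (1.20), Fabp4 (0.078) and Scarb1 (0.57). Against other cells without stromal genes, these were Adamts1 (1.80), Fabp4 (1.71), Scarb1 (0.035) and Timp3 (2.21). With doublets defined without Il7r, these were Ace (0.0786) and Scarb1 (0.34).

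The doublet alternative kept 55 of the 220 cells. It left out the 35 over 2 times their library's median depth and those with 2 or more UMIs of the T and NK (132 cells, 2 without Il7r), B (27), keratinocyte (27) or endothelial (50) genes, with some counted more than once. Without Il7r, it kept 113. The version without Il7r, the comparison without stromal genes and the one without dropped cells were chosen after seeing the data. The rule on thinned counts chose 58 cells, 54 of them among the 220. For the other changes the cause was not tested. Library 2 holds 41 of the cells, so a gene with few UMIs there could miss the 2-fold limit at this depth.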
